A study of Mus musculus with 8 samples.

Results

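RAB proteins are the largest branch of the RAS superfamily of small GTPases, and they direct membrane traffic. Each RAB cycles between a GTP-bound form on a membrane and a GDP-bound form in the cytosol, and marks one kind of compartment, where it recruits motors, tethers and fusion factors. In keratinocytes, the epithelial cells of the epidermis, RABs carry adhesion receptors and junction proteins between the surface and endosomes and serve secretion and lysosomes. The genes described here were the rows of the deposited expression table that were annotated as protein-coding and whose symbol was RAB followed by a number, with an optional letter and number. There were 63 such genes among the 58304 kept from the table. Another 8 rows had a matching symbol but were not annotated as protein-coding and were left out.

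Per the labels, 8 RNA-seq libraries were made from the skin 2 mm around wounds of C57BL/6 mice aged 6 to 8 weeks, at 6 days, with 4 libraries from wounds given PBS and 4 from wounds treated with rFGF4, the recombinant form of the growth factor FGF4. The labels name no genetic change in these animals. Nothing in the labels says whether each library came from its own animal, so p-values measure the spread between these libraries. The table does not hold mouse values: all 58825 gene identifiers were human and 0 were mouse. The table's columns are headed C and FGF4 and are called PBS and rFGF4 here, and nothing is said of mouse wounds. No source used here gives the human cells that were sequenced.

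The libraries held 62044121 to 73680756 counts. All 8 basal keratinocyte markers and 4 of 6 markers of differentiated keratinocytes had a mean of at least 1 FPKM, the level scaled for gene length and library depth, against 0 of 6 fibroblast, 0 of 5 melanocyte, 1 of 4 endothelial, 1 of 4 leukocyte, 0 of 3 skeletal muscle and 0 of 2 erythrocyte markers. The basal markers summed to 2167 to 2449 FPKM in the PBS libraries and 2001 to 2133 FPKM in the rFGF4 libraries. Levels below are FPKM, which allows genes to be set side by side. Fold changes are rFGF4 over PBS from edgeR's quasi-likelihood test, with Benjamini-Hochberg adjustment over all 11536 genes at a mean of at least 1 FPKM and a threshold of 0.05.

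The libraries carried RABs of every main compartment. Of the 63 genes, 44 had a mean of at least 1 FPKM over the 8 libraries and were tested, 10 stood between 0.1 and 1 FPKM and 9 lay below 0.1 FPKM. Of the last, 6 had 0 counts in every library, namely RAB3B, RAB3C, RAB9B, RAB19, RAB39A and RAB39B. RAB37 and RAB42 reached at most 10 and 14 counts in any library and RAB44 at most 8, with 12 counts taken as the lowest reliable value. RAB1B and RAB7A stood far above the other members. RAB1B, which carries cargo from the endoplasmic reticulum to the Golgi, was at 167 ± 5.17 FPKM in the PBS and 174 ± 14.8 FPKM in the rFGF4 libraries (mean ± SD, n = 4). RAB7A, which drives fusion of late endosomes with lysosomes, was at 149 ± 10.3 and 168 ± 7.09 FPKM. Together with RAB14, RAB5C and RAB10 they made up 52.6% to 59.6% of the summed RAB level of a library. That sum was 828 ± 31.3 FPKM in the PBS and 831 ± 22.5 FPKM in the rFGF4 libraries, and the groups overlapped.

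Within RAB families one relative often made up most of the level. RAB1B gave 80.5% to 90.7% of the RAB1A and RAB1B sum, and RAB8A, which delivers membrane to the surface and the cilium, gave 79.4% to 91.6% of the RAB8A and RAB8B sum. RAB5C gave 62.4% to 81.4% of the sum of the RAB5 genes, which control fusion of early endosomes. The recycling family was shared more evenly. RAB11A gave 23.9% to 29.9%, RAB11B 35.1% to 42.5% and RAB25, the RAB11 relative found in epithelia, 30.5% to 35.4% of their sum. RAB38 and RAB32, a pair best known for carrying enzymes to melanosomes and other lysosome-related organelles, were both present. RAB38 stood at 31.5 ± 2.85 FPKM in the PBS and 30.3 ± 1.10 FPKM in the rFGF4 libraries, and RAB32 at 13.4 ± 0.848 and 11.9 ± 0.667 FPKM. Of the 5 melanocyte markers, TYR, MLANA and DCT were below 0.1 FPKM in all 8 libraries, whereas PMEL and MITF reached that level in some library. The 5 summed to 0.840 to 1.09 FPKM in the PBS and 0.540 to 1.09 FPKM in the rFGF4 libraries. These shares and levels are descriptions and were not tested.

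RAB26 fell, and it was the only one of the 44 tested RABs past the threshold. This was 2.27% of the tested members, where 10.0% of all tested genes were called, 5.49% as higher and 4.54% as lower. No RAB was called as higher by edgeR, with 3 higher members at an unadjusted p below 0.05, and 8 of 44 members had an unadjusted p below 0.05 in either direction, or 18.2%, against 25.1% of all tested genes. DESeq2 also called 0 members as higher, and limma on log2(FPKM + 1) did too. The median log2 fold change over the 44 members was −0.04, with quartiles of −0.18 and 0.12, against 0.0015 over all tested genes, with quartiles of −0.14 and 0.16. Of the members 19 lay above 0 and 25 below, against 5799 and 5737 of all tested genes.

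RAB26 encodes a RAB of secretory granules and synaptic vesicles. Its identifier in the table was ENSG00000167964, on chromosome 16 from 2140803 to 2154140 on the forward strand (coordinates here are the table's, and no source used here names its genome build). PBS replicates 1 to 4 stood at 1.69, 2.42, 1.56 and 1.98 FPKM. The rFGF4 replicates 1 to 4 stood at 0.602, 0.632, 0.419 and 0.477 FPKM. Every rFGF4 library lay below every PBS library, with a gap from 0.632 to 1.56 FPKM. The log2 fold change was −1.80 (SE 0.19, 95% interval −2.23 to −1.37, adjusted p = 0.00115), a level 3.48 times lower. These values rested on 289 to 464 counts per PBS library and 88 to 138 per rFGF4 library. The fragments behind them were fewer, since 12 counts were taken as 3 fragments. RAB26 passed the filter on low values through the PBS libraries, whose mean was 1.91 ± 0.377 FPKM, while the rFGF4 mean was 0.533 ± 0.101 FPKM. RAB26 was called in all 16 alternatives, including those with other filters, as filterByExpr (−1.79, adjusted p = 0.00146) and no filter (−1.80, adjusted p = 0.00239).

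The summed basal keratinocyte markers, given above, were also lower in every rFGF4 library than in every PBS library. So were the fibroblast markers, at 0.776 to 0.864 FPKM in the PBS and 0.411 to 0.511 FPKM in the rFGF4 libraries, though none of them reached a mean of 1 FPKM. The endothelial markers, of which 1 of 4 reached that mean, were higher, at 1.85 to 3.05 against 3.06 to 4.08 FPKM. The summed markers of differentiated keratinocytes, leukocytes and melanocytes overlapped between the groups. The part of the basal, fibroblast and endothelial shifts in the RAB26 result was not tested. In bulk libraries fewer cells of a type and less RNA per cell cannot be told apart.

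No other gene of the table lay within the span of RAB26. The 11 other tested genes within 100 kb of it did not pass the test. TRAF7, a ubiquitin ligase gene downstream of RAB26, stood at 37.0 FPKM in the PBS and 36.2 FPKM in the rFGF4 libraries, with a log2 fold change of −0.0038 (adjusted p = 0.979). SNHG19, a small nucleolar RNA host gene between RAB26 and TRAF7, had 0.09 (adjusted p = 0.609), and PKD1, the polycystin 1 gene on the other flank of RAB26, had 0.05 (adjusted p = 0.834). Whether their fold changes differ from that of RAB26 was not tested. RAB37, the closest relative of RAB26, was at or below 0.0234 FPKM in all 8 libraries.

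**Figure D1:**
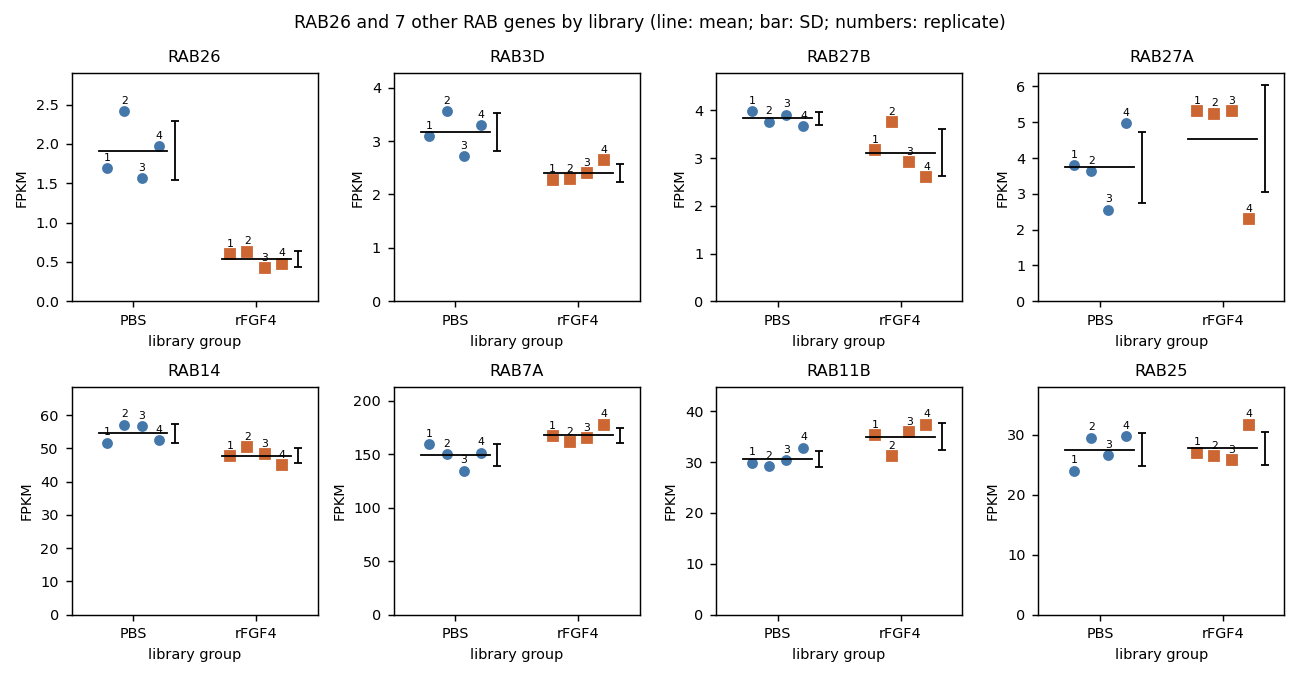
FPKM by library for RAB26 and 7 other RAB genes (circles: PBS, squares: rFGF4, numbers: replicate, line: mean, bar: SD, n = 4). RAB26 falls from 1.91 to 0.533 FPKM with no overlap, whereas RAB25 lies at 27.5 and 27.7 FPKM.

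The other RABs of regulated secretion stayed short of the threshold. RAB3D, which sits on exocrine secretory granules, stood at 3.09, 3.56, 2.72 and 3.30 FPKM in PBS replicates 1 to 4. In rFGF4 replicates 1 to 4 it stood at 2.28, 2.28, 2.40 and 2.64 FPKM, all below the lowest PBS library. Its log2 fold change was −0.37 (SE 0.12, adjusted p = 0.0843). It passed with DESeq2 (adjusted p = 0.0254) and with limma on log2(FPKM + 0.1) (adjusted p = 0.0483). RAB3D shares its span with TMEM205 on the same strand, a gene at 14.4 FPKM, and no source used here says whether counting separated them. RAB3A, a synaptic vesicle RAB, had 0.41 (SE 0.18, adjusted p = 0.205). It stood at 1.51, 1.55 and 1.59 FPKM in rFGF4 replicates 1, 3 and 4 and at 0.976 FPKM in replicate 2, below the PBS range of 1.05 to 1.14 FPKM. It overlaps MPV17L2, at 12.0 FPKM, on the opposite strand.

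RAB27A and RAB27B tether granules to the plasma membrane. RAB27B stood at 3.98, 3.77, 3.92 and 3.67 FPKM in PBS replicates 1 to 4 and at 3.18, 3.76, 2.92 and 2.6 FPKM in the rFGF4 replicates, a log2 fold change of −0.28 (SE 0.10, adjusted p = 0.111). Only rFGF4 replicate 2 reached the PBS range. RAB27A stood at 3.81, 3.64, 2.56 and 4.97 FPKM in PBS replicates 1 to 4 and at 5.31, 5.24, 5.30 and 2.30 FPKM in the rFGF4 replicates. Here 3 rFGF4 libraries lay above all PBS libraries and replicate 4 below them (log2 fold change 0.29, SE 0.29, adjusted p = 0.594). Without rFGF4 replicate 2, 3 further members passed by edgeR besides RAB26, namely RAB27B (−0.36, adjusted p = 0.0273), RAB3A (0.56, adjusted p = 0.0284) and RAB11B (0.29, adjusted p = 0.0465). That fit called 2 of 45 members as higher and 2 as lower, beside 622 and 460 of all 11509 genes. With any other single library left out, RAB26 was the only member called. Summed over all 9 members, the secretion RABs stood at 13.8 ± 1.41 FPKM in the PBS and 12.0 ± 1.59 FPKM in the rFGF4 libraries, and the groups overlapped. Of these sums RAB26 gave 1.91 FPKM in the PBS and 0.533 FPKM in the rFGF4 libraries.

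Among the RABs of late endosomes and recycling, a few abundant members had small differences that did not pass by edgeR. Groups without overlap were no more frequent among the members than among all tested genes, as given below. RAB7A stood at 159, 150, 135 and 151 FPKM in PBS replicates 1 to 4 and at 167, 161, 165 and 178 FPKM in the rFGF4 replicates. The groups did not overlap, but the log2 fold change of 0.20 (SE 0.08, 95% interval 0.03 to 0.37) did not pass (adjusted p = 0.143). RAB14, which moves cargo between endosomes, Golgi and surface, stood at 51.7, 57.2, 56.8 and 52.4 FPKM in PBS replicates 1 to 4 and at 47.7, 50.5, 48.2 and 44.9 FPKM in the rFGF4 replicates. Again the groups did not overlap (log2 fold change −0.16, SE 0.05, adjusted p = 0.0928), and DESeq2 called it as lower (adjusted p = 0.0381). RAB14 overlaps GSN, the gelsolin gene, on the opposite strand, and GSN also fell, from 10.3 ± 0.961 to 8.12 ± 0.203 FPKM (log2 fold change −0.32, adjusted p = 0.0427). The part of this overlap in the RAB14 values was not tested. RAB11B, of recycling endosomes, had 0.22 (SE 0.09, adjusted p = 0.153), with only rFGF4 replicate 2, at 31.2 FPKM, inside the PBS range of 29.2 to 32.8 FPKM.

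Groups that did not overlap in FPKM were found for 7 of 44 members, or 15.9%, against 19.2% of all tested genes. These were RAB26, RAB3D, RAB14, RAB7A, RAB15, RAB11A and RAB12. On CPM with TMM scaling, which corrects for library composition, there were 4, or 9.09%, against 19.3% of all tested genes. RAB26, RAB14 and RAB7A were among both, RAB27B was the fourth on the scaled values, and RAB3D, RAB15, RAB11A and RAB12 overlapped there. RAB15, of endosomal recycling, had a log2 fold change of −0.26 (SE 0.11, adjusted p = 0.176). RAB11A (−0.07, SE 0.05, adjusted p = 0.449) and RAB12 (−0.05, SE 0.07, adjusted p = 0.686) differed by little. RAB36, of the Golgi, had 0.23 (SE 0.09, adjusted p = 0.163).

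For many members the data held the change within narrow bounds. For 28 of 44 members, or 63.6%, the 95% interval of the fold change lay within 1.5-fold in either direction, against 68.9% of all tested genes. They included RAB25 (1.03, interval 0.865 to 1.22), RAB38 (0.979, interval 0.865 to 1.11), RAB1B (1.06, interval 0.927 to 1.21), RAB10 (0.947, interval 0.865 to 1.04) and RAB11A (0.953, interval 0.879 to 1.03). By role, the interval lay within those bounds for 10 of 12 tested members of recycling and polarised delivery and 7 of 8 of late endosomes, lysosomes and autophagy. It did so for 5 of 9 of the Golgi, 3 of 7 of early endosomes, 2 of 2 of the cilium, 1 of 5 of regulated secretion and 0 of 1 of the SOCS box RABs, which recruit ubiquitin ligases. Besides RAB26, 15 members had wider intervals. RAB5A, of early endosomes, had a fold change of 0.888 (interval 0.578 to 1.36, adjusted p = 0.754), RAB8A 1.21 (interval 0.917 to 1.61, adjusted p = 0.379) and RAB1A 0.789 (interval 0.552 to 1.13, adjusted p = 0.401). Their intervals reach past 1.5-fold.

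**Figure D2:**
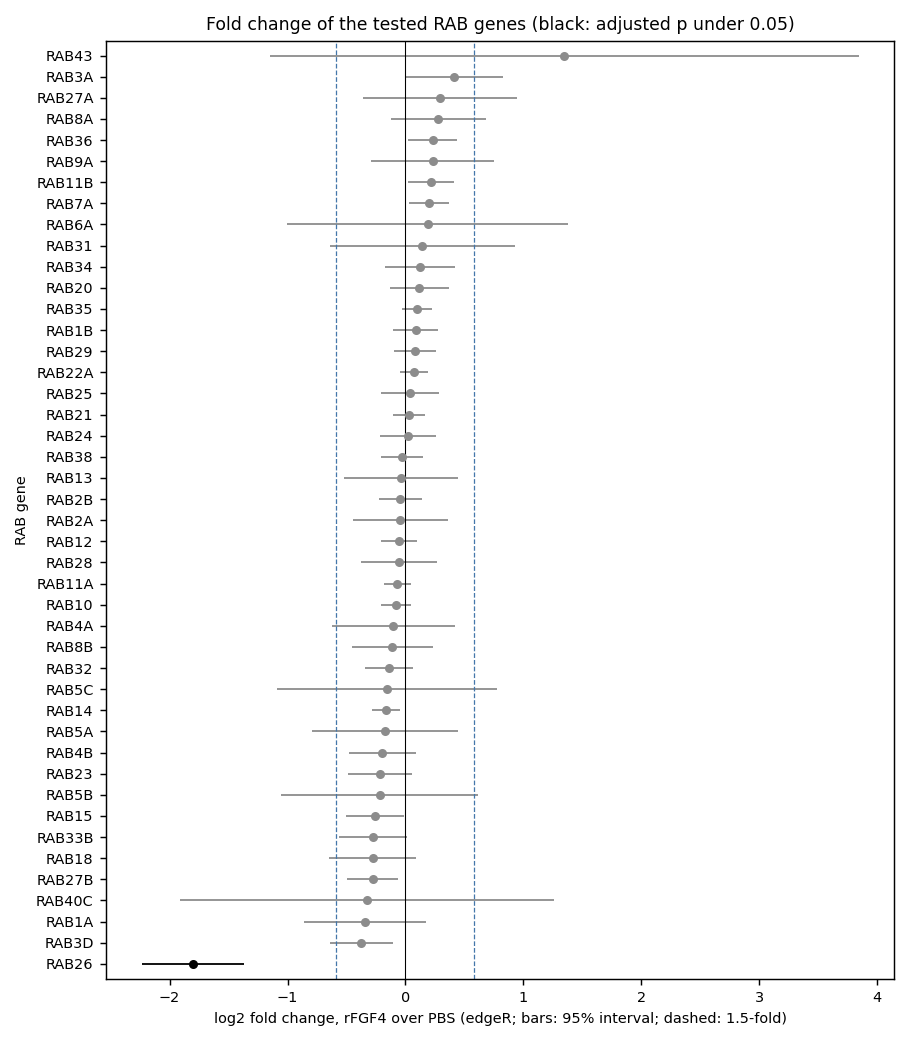
Log2 fold change of the 44 tested RAB genes (rFGF4 over PBS, edgeR) with 95% intervals, dashed lines at 1.5-fold, and the gene past the threshold in black. RAB26 stands at −1.80, while the other 43 points lie between −0.37 and 1.35, the upper end being RAB43 with an interval of −1.15 to 3.84.

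Several wide intervals came from members that sat at separate levels within a group. In 8 of 44 members, or 18.2%, the highest library of a group was at least 2 times the lowest, against 13.8% of all tested genes. RAB6A, of Golgi traffic, stood at 7.67, 23.9, 7.78 and 22.5 FPKM in PBS replicates 1 to 4 and at 21.2, 23.8, 5.74 and 19.3 FPKM in the rFGF4 replicates. So 3 libraries from both groups lay at 5.74 to 7.78 FPKM and the other 5 at 19.3 to 23.9 FPKM, with nothing between. RAB5C stood at 34.7, 78.7, 60.5 and 37.3 FPKM in the PBS and at 32.8, 31.6, 87.7 and 33.4 FPKM in the rFGF4 replicates, with 3 libraries at 60.5 to 87.7 and 5 at 31.6 to 37.3 FPKM. RAB5B had 3 libraries at 5.01 to 6.81 FPKM and 5 at 10.3 to 15.5 FPKM. RAB40C, a SOCS box member, stood at 4.41 FPKM in rFGF4 replicate 1 and 5.51 FPKM in PBS replicate 2, and at 0.852 to 1.53 FPKM in the other 6.

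The libraries at the low level were not the same from gene to gene. For RAB6A they were PBS replicates 1 and 3 and rFGF4 replicate 3, and for RAB5B PBS replicates 1 and 3 and rFGF4 replicate 1. RAB2A, a Golgi RAB, was at 13.2 FPKM in PBS replicate 4 and 13.1 FPKM in rFGF4 replicate 1 and at 19.0 to 20.9 FPKM in the other 6. None of these members passed, with log2 fold changes of 0.19 (SE 0.52, adjusted p = 0.863) for RAB6A, −0.16 (SE 0.41, adjusted p = 0.854) for RAB5C, −0.22 (SE 0.37, adjusted p = 0.768) for RAB5B and −0.33 (SE 0.70, adjusted p = 0.819) for RAB40C. Since both groups held libraries at both levels for these members, the label did not follow the level in them. In 2 other members the levels did not occur in both groups. RAB1A was at 36.8 and 39.2 FPKM in PBS replicates 1 and 3 and at 17.9 to 28.6 FPKM in the other 6. RAB31, of early endosomes, was at 0.837 FPKM in PBS replicate 4 and at 2.20 to 3.18 FPKM in the other 7. Neither passed by edgeR (adjusted p = 0.401 and 0.843).

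RAB43, a Golgi RAB, varied most. It stood at 2.07, 0.201, 2.25 and 1.19 FPKM in PBS replicates 1 to 4 and at 0.829, 12.3, 0.536 and 0.923 FPKM in the rFGF4 replicates. Its log2 fold change of 1.35 (SE 1.09, adjusted p = 0.504) rested on rFGF4 replicate 2 and was −0.85 without it. The table also holds ISY1-RAB43, a read-through gene that joins ISY1, a splicing factor gene, to RAB43 on the same strand. ISY1-RAB43 stood at 3.65, 3.03, 0 and 0 FPKM in PBS replicates 1 to 4 and at 9.42, 0, 8.69 and 0 FPKM in the rFGF4 replicates. ISY1 itself was at 6.54 and 6.02 FPKM in rFGF4 replicates 1 and 3, where the read-through gene was highest, and at 13.2 to 18.3 FPKM in the other 6. The sum of ISY1 and ISY1-RAB43 was steadier, at 14.7 to 18.6 FPKM over the 8 libraries. With RAB43 added, the sum was 28.8 FPKM in rFGF4 replicate 2 and 15.2 to 19.6 FPKM in the other 7. In rFGF4 replicate 2, ISY1-RAB43 was at 0 FPKM and ISY1 at 16.4 FPKM. No source used here says how reads were divided between these overlapping genes, and their part in the RAB43 values was not tested. Of the 44 tested members, 15 overlapped another gene with a mean of at least 1 FPKM.

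**Figure D3:**
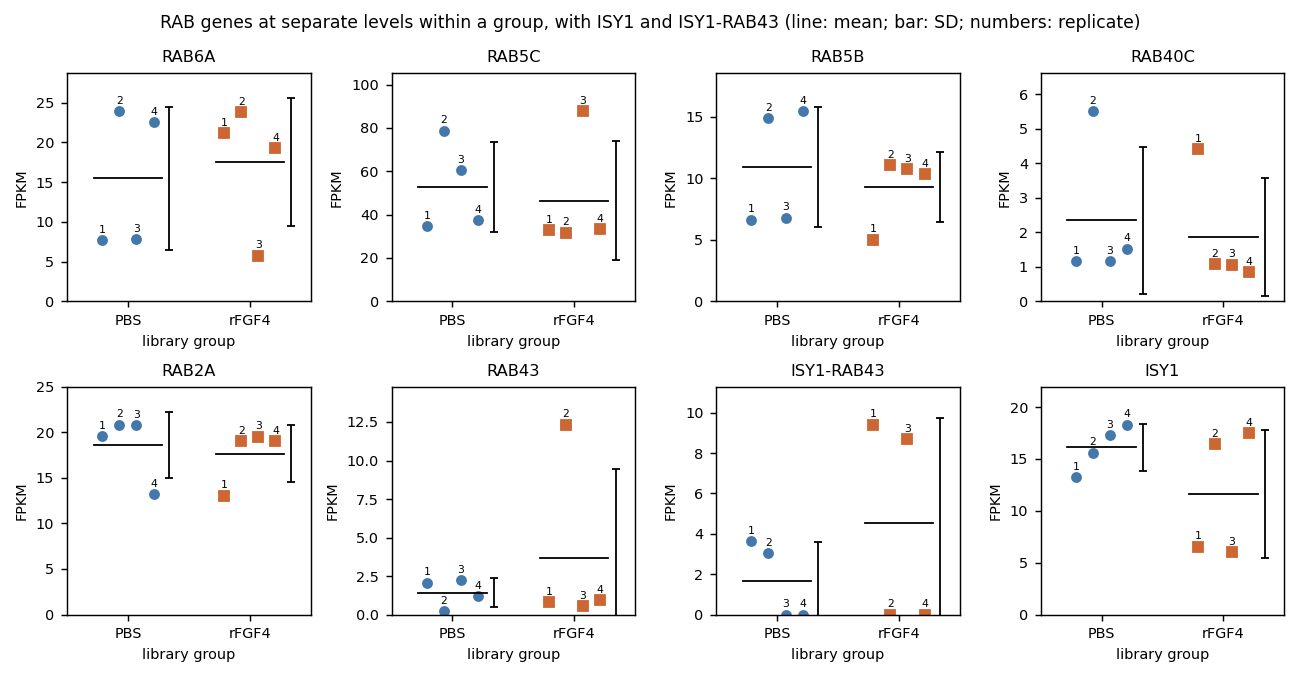
FPKM by library for 6 RAB genes, for the read-through gene ISY1-RAB43 and for ISY1 (circles: PBS, squares: rFGF4, numbers: replicate, line: mean, bar: SD with the part below 0 not drawn, n = 4). RAB6A lies at 5.74 to 7.78 FPKM or at 19.3 to 23.9 FPKM in libraries of both groups, and ISY1 is lowest in the libraries with the most ISY1-RAB43.

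Members below the filter were tested in a further fit of genes at a mean of at least 0.1 FPKM. Of the 10 members added there, 0 passed by edgeR, where 615 of all 17964 genes of that fit passed as higher and 552 as lower. An unadjusted p below 0.05 was found for 2 of the 10, and for 3724 of the 17964. RAB7B, which moves cargo from endosomes to the Golgi, had just missed the filter with a mean of 0.990 FPKM. It stood at 1.03, 1.3, 1.05 and 1.26 FPKM in PBS replicates 1 to 4 and at 0.791, 0.712, 0.878 and 0.905 FPKM in the rFGF4 replicates, without overlap (log2 fold change −0.46, adjusted p = 0.13). RAB6B, a RAB6 relative best known from brain, stood at 0.0803 to 0.103 FPKM in the PBS and 0.136 to 0.207 FPKM in the rFGF4 libraries, also without overlap (0.81, adjusted p = 0.0574). Just inside the filter were RAB26 and RAB3A, with means of 1.22 and 1.24 FPKM.

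The machinery that loads, switches and reads RABs was followed through 146 genes in 6 lists, of which 119 were tested. Of these 4 rose and 9 fell, or 10.9% of those tested, beside the 10.0% of all tested genes. The median log2 fold change was −0.06, with 44 genes above 0 and 75 below, against 5799 and 5737 of all tested genes. GDI2, which takes RABs off membranes, CHM, which presents new RABs for prenylation, and RABGGTA, a subunit of the prenylating enzyme, had 0.01, −0.09 and 0.20 and did not pass (adjusted p = 0.944, 0.793 and 0.404). None of the 8 genes of that list passed by edgeR, DESeq2 or limma on log2(FPKM + 1), and 1 had an unadjusted p below 0.05. Of 34 exchange factors, which load GTP, 3 rose and 2 fell. Of 31 GTPase-activating proteins, which switch RABs off, 0 rose by edgeR (3 at an unadjusted p below 0.05, 2 by DESeq2, 0 by limma) and 3 fell, with a list median of −0.18 and 24 of 31 below 0. Of 35 effectors and tethers 1 rose and 3 fell. Of 9 members of the exocyst, which tethers vesicles to the plasma membrane, 1 fell and all 9 lay below 0, with a median of −0.12. Of the 2 tested kinase and phosphatase genes, 0 passed by edgeR, DESeq2 or limma, and 0 had an unadjusted p below 0.05.

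TBC1D9, a gene of the TBC family of GTPase-activating proteins, had the largest change of these lists past the threshold. It stood at 3.51, 3.59, 3.45 and 2.99 FPKM in PBS replicates 1 to 4 and at 1.77, 1.99, 1.76 and 1.40 FPKM in the rFGF4 replicates, with a clear gap between the groups (log2 fold change −0.95, SE 0.11, adjusted p = 0.00153). RAB11FIP4, an effector of RAB11, stood at 3.29, 3.13, 3.09 and 2.82 FPKM in the PBS and at 2.25, 1.88, 1.91 and 1.76 FPKM in the rFGF4 replicates. It fell by 0.64 (SE 0.08, adjusted p = 0.00259), while RAB11A and RAB11B themselves did not pass. DENND3, an exchange factor for RAB12, fell by 0.46 (SE 0.08, adjusted p = 0.00866), from 2.30 ± 0.0640 to 1.65 ± 0.197 FPKM, beside the −0.05 of RAB12. DENND1C, another exchange factor, fell by 0.57 (SE 0.11, adjusted p = 0.0157).

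Of the other partners past the threshold, OPTN, an effector of RAB8A and an autophagy adaptor, fell by 0.32 (SE 0.06, adjusted p = 0.0148), and SYTL1, an effector of RAB27, fell by 0.32 (SE 0.07, adjusted p = 0.0276). GRTP1 (−0.41, SE 0.10) and TBC1D1 (−0.34, SE 0.09), both of the TBC family, fell with adjusted p = 0.0386 and 0.0495, and the exocyst gene EXOC6B fell by 0.31 (SE 0.08, adjusted p = 0.0377). MON1A, part of the exchange factor for RAB7, rose by 0.49 (SE 0.11, adjusted p = 0.0284), from 1.38 ± 0.132 to 1.91 ± 0.178 FPKM. RILPL1, which binds phosphorylated RAB8A and RAB10, rose by 0.43 (SE 0.09, adjusted p = 0.0257). RIN3, an exchange factor of the RAB5 family, rose by 0.33 (SE 0.08, adjusted p = 0.0417), and ANKRD27, which activates RAB21 and binds RAB32 and RAB38, rose by 0.21 (SE 0.05, adjusted p = 0.0482). Several of these calls were not stable. Of the 16 alternatives, the call was lost in 15 for ANKRD27, 14 for TBC1D1, 13 for RIN3, 9 for GRTP1, 8 each for EXOC6B, MON1A and SYTL1, 7 for RILPL1, 2 for OPTN and 1 for DENND1C. With 1 library left out, 0 to 3 partner genes were called as higher and 4 to 9 as lower. None was called as higher by edgeR without PBS replicate 1, PBS replicate 2 or rFGF4 replicate 3. DENND3, RAB11FIP4 and TBC1D9 were called in all 16 alternatives.

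**Figure D4:**
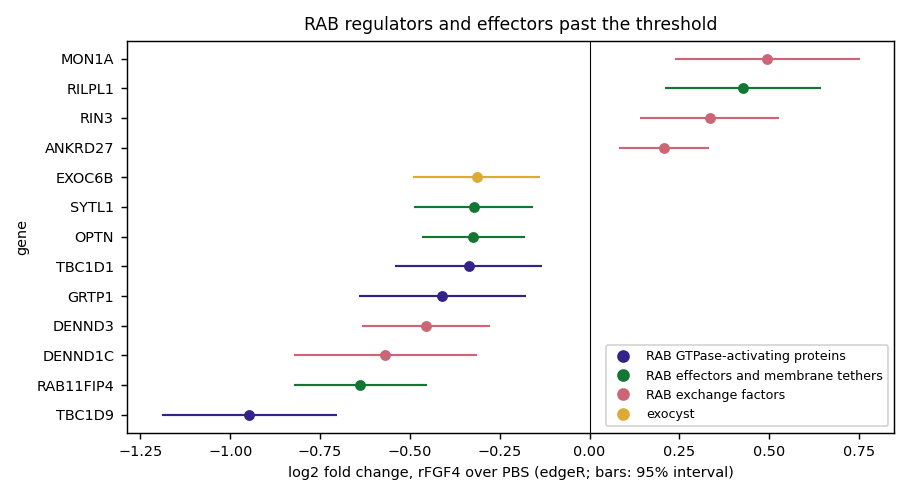
Log2 fold change (rFGF4 over PBS, edgeR) with 95% intervals of the 13 RAB regulators and effectors past the threshold, coloured by list. TBC1D9 lies lowest at −0.95 and MON1A highest at 0.49.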

How the data were processed

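RNA was sequenced in 8 libraries, 4 per group. Per the file headers, the authors deposited a table of counts and FPKM per gene. HISAT2 2.0 and StringTie 1.3.0 are named in the submitters' processing notes, and no source used here names the genome build or the strand of counting. In the deposited counts the value 4 occurred 9781 times, against 3485 for 3 and 1977 for 5, so 12 counts were taken as 3 fragments and as the lowest reliable value. Overlapping genes and near-identical copies may share reads.

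From the 58825 genes, 521 were left out (Y-linked genes, XIST and TSIX). Counts of the 11536 genes at a mean of at least 1 FPKM were tested with edgeR 4.0.16 (TMM scaling, quasi-likelihood test, Benjamini-Hochberg adjustment) in R 4.3.3. DESeq2 1.42.0, limma 3.58.1 on log2 of the deposited FPKM plus 1 or 0.1, other filters, other size factors, a replicate block and leaving out each library were alternatives. The scripts were tested on simulated data. There edgeR recovered 0% of changes of 1.25-fold, 30% of 1.5-fold, 82% of 2-fold and 98% of 4-fold. Small changes can therefore stay short of the threshold.

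The members, the 6 lists of partner genes and the roles were chosen with earlier results of these data known. Named members were those past the threshold, those whose groups did not overlap, the 5 highest, and RAB1A, RAB5A, RAB7A, RAB8A, RAB11A, RAB25, RAB26, RAB27A, RAB27B, RAB37 and RAB38. Named partners were up to 3 of each list in each direction with the smallest p past the threshold, and GDI2, CHM and RABGGTA. A further partner named by the rule is not reported here. Other genes named were chosen after their values were seen.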

Additional observations from a re-analysis of the deposited data

Results flagged for a closer look

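Each group of 4 libraries was checked for a library far from the other 3. Of 122 such groups, over the tested RABs and the named partners, 18 had one, where chance gives about 1 in 20, or 6.1. Replicate 4 of the rFGF4 group held 5 of the 18.

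Among the abundant members, RAB5C was at 87.7 FPKM in rFGF4 replicate 3, with the other rFGF4 libraries at 31.6 to 33.4 FPKM. RAB10 was at 29.2 FPKM and RAB35, a recycling RAB, at 20.2 FPKM in rFGF4 replicate 4. RAB2A was low at 13.2 FPKM in PBS replicate 4 and at 13.1 FPKM in rFGF4 replicate 1. RAB5B was low at 5.01 FPKM in rFGF4 replicate 1, and RAB12 was high at 10.6 FPKM in PBS replicate 2.

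In rFGF4 replicate 4, RAB9A, of transport from late endosomes to the Golgi, was at 3.83 FPKM, RAB27A at 2.30 FPKM and RAB15 at 0.992 FPKM, each below the other rFGF4 libraries. RAB21, of early endosomes, was at 2.86 FPKM in rFGF4 replicate 3, only slightly below the others at 2.93 to 2.94 FPKM. RAB43 was at 12.3 FPKM in rFGF4 replicate 2, and RAB3A at 0.976 FPKM in the same library. RAB40C was high at 5.51 FPKM in PBS replicate 2 and at 4.41 FPKM in rFGF4 replicate 1. RAB33B, a Golgi RAB, was at 1.78 FPKM in PBS replicate 3. Of the partners, GDI2 was at 53.5 FPKM in PBS replicate 1 and OPTN at 13.8 FPKM in PBS replicate 2.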

How the results depend on the processing

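RAB26 kept its direction and its call in all 16 alternatives, with log2 fold changes of −1.89 to −0.92. The −0.92 came from limma on log2(FPKM + 1), which adds 1 to values of 0.419 to 2.42 FPKM. All other alternatives gave −1.89 to −1.67. Over all tested genes, DESeq2 called 982 as higher and 846 as lower, against 633 and 524 by edgeR, and leaving out 1 library gave 326 to 622 and 269 to 550. Among the RAB members, DESeq2 called 3 as lower and limma on log2(FPKM + 0.1) called 2, and leaving out 1 library gave 0 to 2 as higher and 1 to 2 as lower. Of the partners, DESeq2 called 8 as higher and 14 as lower, both limma fits 2 as higher, no filter 2 as higher and 5 as lower, and leaving out 1 library gave 0 to 3 and 4 to 9. With the replicate block 2 partners were called as higher and RAB43 was at −0.15. Libraries of the same number correlated at 0.148, 0.0885, −0.0264 and 0.198, and libraries of different number at −0.132 to 0.0732. Replicates 1, 2 and 4 thus lay above every pair of different number. The labels give no factor besides the group, so the main fit did not take the numbers as pairs. Whether libraries of the same number shared a batch or an animal was not tested. With the replicate block RAB26 was at −1.79 (edgeR, adjusted p = 0.00986). Of 42 named genes, 10 changed sign in some setting. GDI2 was at −0.0143 and −0.0145 in the limma fits with 1 and 0.1 added. With 1 library left out the range was −0.0292 to 0.0317 for GDI2, −0.21 to 0.00033 for CHM, −0.056 to 0.0888 for RAB25, −0.172 to 0.0801 for RAB2A, −0.076 to 0.0311 for RAB38, −1.20 to 0.53 for RAB40C, −0.85 to 1.71 for RAB43, −0.40 to 0.0046 for RAB5B, −0.67 to 0.10 for RAB5C and −0.0392 to 0.479 for RAB6A. The cause of these shifts was not tested. For 15 members besides RAB26 the 95% interval reached past 1.5-fold, so a change of that size is not excluded in them.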
